A study of Homo sapiens with 12 samples.

Results

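CALML5, a calmodulin-like calcium sensor of differentiating skin, was described together with 8 genes of squamous differentiation and epithelial secretion (CALML3, SFN, SPRR1A, SPRR1B, IVL, CSTA, LCN2 and SLPI), 9 of the 56632 genes in the deposited tables. CALML5 was selected on its level, which was higher in CBFB_KO than in WT in the mono and poly libraries, so its own differences between genotypes are a description without a test. The other 8 members were taken as named genes, chosen with earlier results of these data known, to ask whether they follow CALML5. All 9 passed the filter on low counts.

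The cells were MCF10A, a non-tumorigenic human mammary epithelial line used at under 20 passages. WT cells were compared with CBFB_KO cells, in which the gene for core binding factor subunit beta was disrupted with CRISPR. Both genotypes were grown with horse serum, insulin, EGF, hydrocortisone and cholera toxin, and both received cycloheximide, which arrests ribosomes on the mRNA, before lysis. Lysates were separated on sucrose gradients into RNA free of ribosomes (free), RNA with a single ribosome (mono) and RNA with several ribosomes (poly). With 2 genotypes, 3 fractions and 2 replicates there were 6 groups of 2, or 12 libraries. Knockout cells of this study were grown from single-cell colonies, and whether these libraries came from 1 clone is not given in the sources used here. Nothing in the labels says that replicates were separate cultures, so p-values measure the spread between these libraries, which may be technical.

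Total counts ranged from 41050325 to 63886726 per library, and 3 counts were between 4.7e-06 and 7.3e-06 percent of a library. This floor covers counting error only. Both CBFB_KO free libraries stood apart, with 71.6% and 87.2% of their counts on mitochondrial genes against 1.3% to 20.8% in the others. They held 13568143 and 5247878 counts on other genes, where the remaining libraries held at least 43279862. The CBFB_KO poly pair differed far less than any other pair, with a mean chi-square of 2.22 per gene against 123 to 954 elsewhere. It was kept as 2 libraries, and counting it as 1 sample was an alternative. CBFB itself was measured at 8.03 and 6.20 CPM (counts relative to library size, scaled with TMM factors) in WT mono, 4.79 and 3.89 in CBFB_KO mono, 5.72 and 6.84 in WT poly and 3.59 and 4.01 in CBFB_KO poly. In the free fraction it was at 5.37 and 12.6 CPM in WT and at 11.3 and 14.1 in CBFB_KO. The adjusted p of its difference was 0.37, 1.0 and 1.0 in the free, mono and poly fractions (edgeR). The edited part of the transcript is not given in the labels, so this level does not check the knockout. All 10 mammary epithelial markers reached a level of at least 1 TPM (RSEM's per-length unit) in some library, KRT5 and KRT17 among the most abundant. Of the fibroblast markers, 5 of 7 stayed below 1 TPM in every library, and their sum was at most 3.05 TPM. Of the blood and endothelial markers 6 of 7 stayed below 1 TPM. The exception was HBA1, and the sum of this list ranged from 14.38 to 64.41 TPM in WT and from 1.28 to 30.06 TPM in CBFB_KO.

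Squamous epithelia build a cornified envelope beneath the cell membrane. Transglutaminases crosslink precursors such as involucrin (IVL), the small proline-rich proteins (SPRR1A, SPRR1B) and cystatin A (CSTA) into it under the control of calcium. The calmodulin-like proteins CALML5 and CALML3 bind calcium as calmodulin does but are largely restricted to epithelia. SFN encodes 14-3-3 sigma, the epithelial member of an adaptor family that binds phosphorylated proteins. SLPI inhibits serine proteases such as elastase, and LCN2 (lipocalin 2) binds bacterial iron carriers. CBFB has no DNA-binding activity and acts with RUNX factors, which bind DNA.

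In the GRCh38 annotation (GENCODE release 29) CALML5 lies at chr10:5498697-5499555 on the minus strand and CALML3 at chr10:5524009-5526771 on the plus strand, with their 5′ starts 24.5 kb apart. IVL (chr1:152908545-152911886), SPRR1A (chr1:152985231-152985500) and SPRR1B (chr1:153031202-153032900) lie in the epidermal differentiation complex on the plus strand of chromosome 1, which also holds SFN (chr1:26863138-26864457, plus strand) outside that complex. CSTA (chr3:122325244-122341972, plus strand), LCN2 (chr9:128149071-128153455, plus strand) and SLPI (chr20:45252239-45254564, minus strand) lie elsewhere. All are protein-coding genes.

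The 250 bases before the start of transcription were read from RefSeq (GRCh38.p14), which held 7 of the 9 members and not CSTA and SLPI. They were searched on both strands for the RUNX motif TGTGGT or TGCGGT and the AP-1 motif TGANTCA, matches in capitals. The windows of the calmodulin-like pair are shown because both genes were higher in CBFB_KO, those of the SPRR1 pair because both were lower, and that of IVL because it holds both motifs. The RefSeq starts of CALML5, CALML3, SFN, SPRR1A and LCN2 differ from those of the GENCODE genes above. The windows of CALML3 and LCN2 lie inside the GENCODE genes.
CALML5 (chr10:5499571-5499820, minus strand): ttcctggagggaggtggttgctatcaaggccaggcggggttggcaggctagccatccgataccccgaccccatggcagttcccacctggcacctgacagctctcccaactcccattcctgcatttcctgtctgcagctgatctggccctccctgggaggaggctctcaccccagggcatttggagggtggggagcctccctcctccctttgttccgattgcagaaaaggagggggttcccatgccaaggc
CALML3 (chr10:5524711-5524960, plus strand): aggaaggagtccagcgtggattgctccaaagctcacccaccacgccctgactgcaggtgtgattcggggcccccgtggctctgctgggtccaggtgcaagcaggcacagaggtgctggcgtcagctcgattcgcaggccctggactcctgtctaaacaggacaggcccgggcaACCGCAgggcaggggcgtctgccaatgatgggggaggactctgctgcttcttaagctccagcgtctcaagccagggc
SPRR1A (chr1:152983831-152984080, plus strand): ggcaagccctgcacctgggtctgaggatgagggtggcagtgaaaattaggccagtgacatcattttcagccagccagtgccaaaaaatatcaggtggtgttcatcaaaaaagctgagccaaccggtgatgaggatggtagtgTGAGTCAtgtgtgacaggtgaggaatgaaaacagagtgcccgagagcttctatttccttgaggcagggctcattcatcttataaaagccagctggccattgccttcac
SPRR1B (chr1:153030953-153031202, plus strand): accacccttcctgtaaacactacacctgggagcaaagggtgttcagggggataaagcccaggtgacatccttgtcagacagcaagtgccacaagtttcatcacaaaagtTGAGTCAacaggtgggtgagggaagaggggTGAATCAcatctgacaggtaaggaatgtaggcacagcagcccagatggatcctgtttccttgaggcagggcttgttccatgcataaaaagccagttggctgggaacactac
IVL (chr1:152908296-152908545, plus strand): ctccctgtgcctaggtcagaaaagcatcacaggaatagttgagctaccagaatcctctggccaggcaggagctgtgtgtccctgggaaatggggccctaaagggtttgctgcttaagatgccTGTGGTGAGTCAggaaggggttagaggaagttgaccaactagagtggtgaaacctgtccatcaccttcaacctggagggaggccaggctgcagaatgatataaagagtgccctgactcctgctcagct
The CALML5 window held neither motif. CALML3 held 1 RUNX match that begins 77 bases before the start, on the opposite strand. SPRR1B held 2 AP-1 matches at 141 and 111 bases before the start, and SPRR1A held 1 at 108. In IVL a RUNX match at 128 and an AP-1 match at 123 bases before the start share a single base. SFN and LCN2 each held 1 AP-1 match, at 170 and 52 bases. A RUNX match was thus in 2 of 7 member windows and in 16.3% of all 35116 promoter windows, and an AP-1 match in 5 of 7 and in 6.57%. These are matches of letters and not sites of binding.

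CALML5 was low in every WT library and high in the CBFB_KO mono and poly libraries. In the mono fraction it was at 3.66 and 3.38 CPM in WT and at 29.9 and 38.1 CPM in CBFB_KO. In the poly fraction it was at 1.57 and 1.32 CPM in WT and at 15.5 and 15.8 CPM in CBFB_KO. The groups did not overlap in either fraction, and the fitted difference was 3.27 on the log2 scale (SE 0.73) or 9.64-fold in mono and 3.43 (SE 0.74) or 10.8-fold in poly. In the free fraction WT was at 2.53 and 1.97 CPM and CBFB_KO at 2.72 and 0.101 CPM, the last value resting on 1 count. The free groups overlapped, with a fitted log2 difference of -0.54 (SE 0.72) that became 0.29 without the second CBFB_KO free library. The poly to mono ratio of CALML5 differed between genotypes by 0.16 on the log2 scale (SE 0.95). In bulk fractions a larger share of cells with the RNA and more RNA per cell cannot be told apart.

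**Figure D1:**
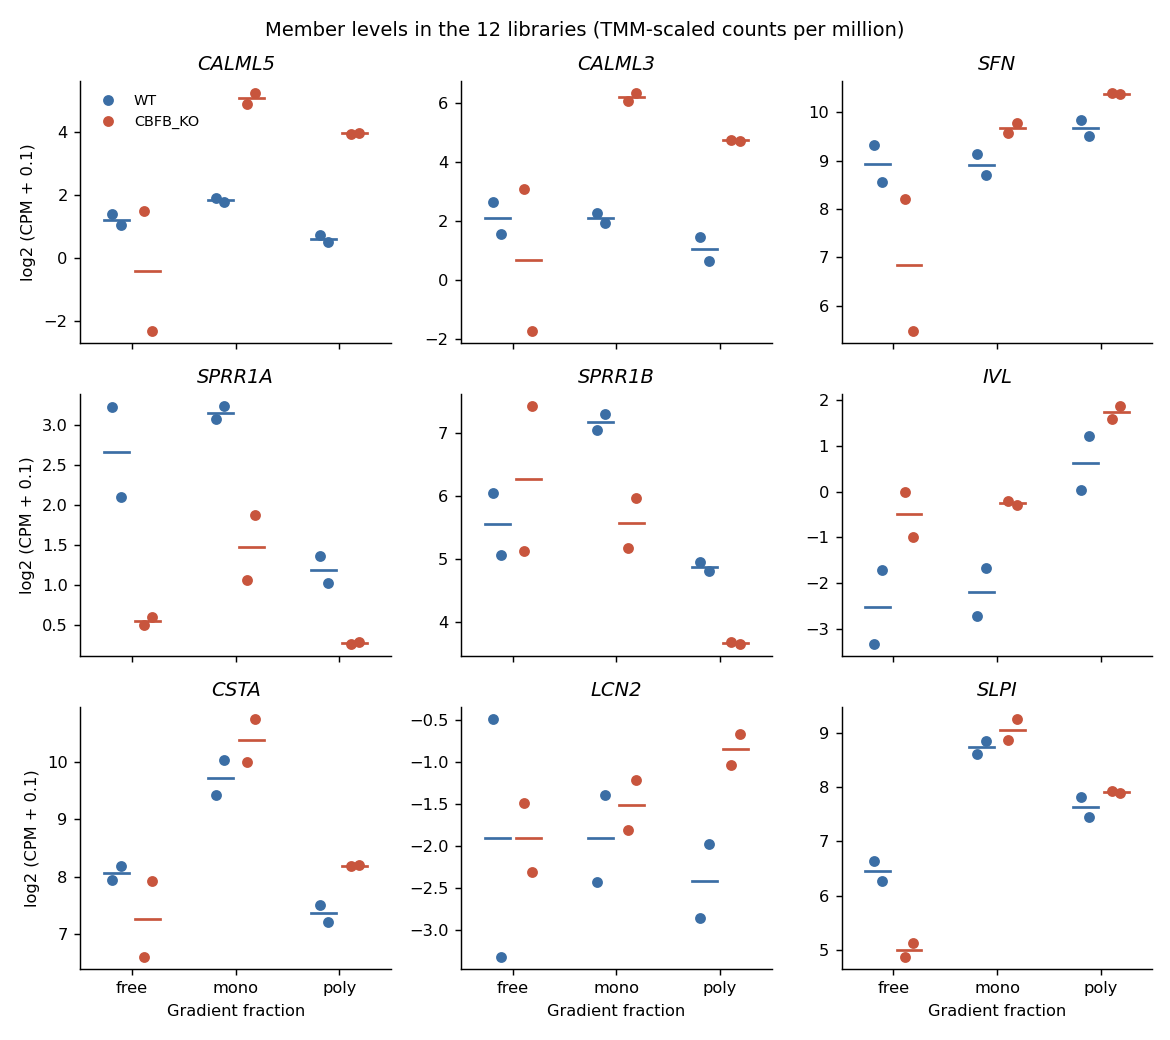
Level of each of the 9 members in the 12 libraries as log2 of CPM plus 0.1, by gradient fraction, with points for libraries, bars for the mean of 2 and a separate scale for each gene. CALML5 and CALML3 stand higher in CBFB_KO in mono and poly, whereas SPRR1A and SPRR1B stand lower there.

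CALML3, the second calmodulin-like gene of the locus, was likewise higher in CBFB_KO in both ribosome-bound fractions. It was at 4.75 and 3.71 CPM in WT mono and at 65.8 and 80.2 CPM in CBFB_KO mono. It was at 2.66 and 1.48 CPM in WT poly and at 26.5 and 26.0 CPM in CBFB_KO poly. Neither pair of groups overlapped. The fitted difference was 4.11 on the log2 scale (SE 0.99) or 17.2-fold in mono and 3.66 (SE 0.97) or 12.7-fold in poly. In the fit of all 12 libraries CALML3 did not pass the threshold over all genes (edgeR adjusted p = 0.31 in mono and 0.47 in poly). It passed when the free libraries were left out (adjusted p = 0.0025 and 0.0031), a setting chosen after seeing the data. It also passed when each fraction was fitted on its own 4 libraries (0.047 and 0.028, the latter with the nearly identical CBFB_KO poly pair) and with DESeq2 (0.00018 and 0.0025). CALML3 did not pass in edgeR with the replicate block (0.23 and 0.35), with the gene length offset (0.15 and 0.23) or without mitochondrial genes (0.30 and 0.47). Nor did it pass without TMM factors (0.82 in mono). The spread that the 12-library fit shares among groups includes the CBFB_KO free pair, where CALML3 was at 8.28 and 0.202 CPM, the second value from 2 counts. WT free stood at 6.09 and 2.83 CPM, and the free groups overlapped (log2 difference -0.01, SE 0.89, adjusted p = 1.0; 0.90 without the second CBFB_KO free library). CALML3 shares its locus with CALML3-AS1 and AL732437.1 on the opposite strand, at mean levels of 0.0625 and 0.00583 TPM. Whether counting used the strand is not given in the sources used here, so reads of these genes and CALML3 cannot be told apart.

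SFN, one of the most abundant members, stood higher in CBFB_KO in both ribosome-bound fractions and lower in the free fraction, and passed the test in none of them. It was at 560 and 416 CPM in WT mono against 760 and 879 in CBFB_KO mono. In poly it was at 911 and 724 CPM in WT against 1349 and 1320 in CBFB_KO. These groups did not overlap, yet the log2 differences of 0.75 (SE 0.65) and 0.71 (SE 0.65) had an edgeR adjusted p of 1.0 each. In the free fraction SFN was at 635 and 378 CPM in WT and at 293 and 44.3 in CBFB_KO, a log2 difference of -1.58 (SE 0.67, adjusted p = 0.074 with edgeR and 0.015 with DESeq2). Without the second CBFB_KO free library it was -0.78.

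The 2 SPRR1 genes went against CALML5. SPRR1B was at 132 and 158 CPM in WT mono and at 36.2 and 62.9 in CBFB_KO mono. In poly it was at 30.7 and 27.9 CPM in WT and at 12.7 and 12.4 in CBFB_KO. Both fractions were without overlap, and the log2 differences were -1.55 (SE 0.64) and -1.22 (SE 0.64), each with an edgeR adjusted p of 1.0. Fitted on the 4 poly libraries alone, SPRR1B passed at an adjusted p of 0.035, in a fit whose spread rests in part on the nearly identical CBFB_KO poly pair. With that pair as 1 sample in the fit of all libraries, its adjusted p was 1.0. In the free fraction its libraries scattered, with 66.2 and 33.5 CPM in WT and 34.7 and 173 in CBFB_KO (log2 difference 1.06, SE 0.64, adjusted p = 0.2), and the sign turned without the second CBFB_KO free library (-0.51) and without TMM factors (-0.98).

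SPRR1A stood lower in CBFB_KO without overlap in all 3 fractions. It was at 9.26 and 4.19 CPM in WT free and at 1.32 and 1.42 in CBFB_KO free, and this fall passed the test (log2 difference -2.30, SE 0.52, edgeR adjusted p = 0.0066). The call was kept without the second CBFB_KO free library (-2.34, adjusted p = 0.031). It was lost in a fit of the 4 free libraries alone (adjusted p = 0.081) and without either CBFB_KO replicate (0.054 and 0.085). In mono SPRR1A was at 8.33 and 9.37 CPM in WT and at 1.99 and 3.58 in CBFB_KO (-1.67, SE 0.49, adjusted p = 0.57). In poly it was at 2.47 and 1.93 CPM against 1.10 and 1.12 (-0.98, SE 0.48, adjusted p = 1.0). SPRR1A and SPRR1B are close copies, so the division of reads between them is uncertain, and the effective length of SPRR1A varied from 174.1 to 462.8 bases between libraries.

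IVL, the third envelope precursor, was near the limit of detection outside the poly fraction, with between 0 and 41 counts in each free or mono library. It was at 0 and 0.206 CPM in WT free, 0.892 and 0.405 in CBFB_KO free, 0.0515 and 0.215 in WT mono and 0.762 and 0.717 in CBFB_KO mono. In poly it was at 0.929 and 2.22 CPM in WT and at 2.90 and 3.55 in CBFB_KO. CBFB_KO stood higher in CPM without overlap in each fraction, but the log2 differences of 2.66 (SE 1.20), 2.48 (SE 1.17) and 1.04 (SE 1.04) had edgeR adjusted p of 0.092, 1.0 and 1.0. The free value was called higher with DESeq2 (adjusted p = 0.038) and without the filter on low counts (0.024), and it ranged between 1.74 and 8.24 according to which WT replicate was left out. In deposited TPM the free groups of IVL overlapped, at 0 and 0.11 in WT and 0.12 and 0.02 in CBFB_KO.

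CSTA was at 183 and 149 CPM in WT poly and at 292 and 294 in CBFB_KO poly (log2 difference 0.82, SE 0.47, edgeR adjusted p = 1.0). In mono the groups overlapped, at 687 and 1042 CPM in WT and 1027 and 1720 in CBFB_KO (0.67, SE 0.47, adjusted p = 1.0). In free it was at 245 and 292 CPM in WT and at 97.6 and 244 in CBFB_KO (-0.65, SE 0.47, adjusted p = 0.28). Without the second CBFB_KO free library the free difference was -1.45 and passed (adjusted p = 0.037), as it did without TMM factors (-2.58, adjusted p = 0.0024).

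Of the secretory genes, SLPI fell in the free fraction and did not pass in the others. It was at 99.4 and 76.7 CPM in WT free and at 29.1 and 34.6 in CBFB_KO free, a log2 difference of -1.47 (SE 0.37, edgeR adjusted p = 0.011). The call was kept without the second CBFB_KO free library (-1.59, adjusted p = 0.017). It was lost in a fit of the 4 free libraries alone (adjusted p = 0.16), without WT replicate 1 (0.087) and without either CBFB_KO replicate (0.058 and 0.076). In mono SLPI was at 393 and 464 CPM in WT and at 466 and 615 in CBFB_KO (0.33, SE 0.36, adjusted p = 1.0). In poly it was at 227 and 174 CPM in WT and at 244 and 238 in CBFB_KO (0.26, SE 0.36, adjusted p = 1.0). LCN2 was barely detected, with between 0 and 45 counts in a library and at most 0.614 CPM. Its log2 differences of -0.69 (SE 1.69), 0.50 (SE 1.61) and 2.24 (SE 1.63) in free, mono and poly had adjusted p of 0.77, 1.0 and 1.0, so no difference was detectable at this depth.

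**Figure D2:**
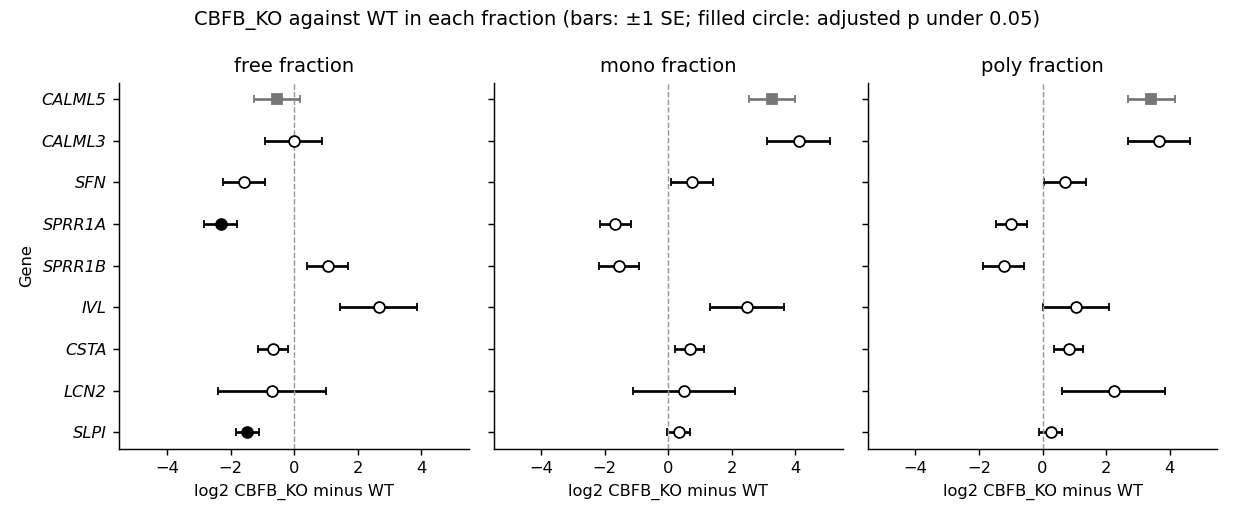
Fitted log2 difference between CBFB_KO and WT for each member in the free, mono and poly fractions, with bars of 1 SE. Filled circles mark the calls at an adjusted p under 0.05, SPRR1A and SLPI in the free fraction, and CALML5 is a grey square because its level selected it.

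Counted over the 8 members other than CALML5, 4 stood higher in CBFB_KO without overlap in mono (CALML3, SFN, IVL and SLPI) and 2 stood lower (SPRR1A and SPRR1B), where 17.0% and 12.9% of all 16275 genes tested did so. In poly 6 stood higher and the same 2 lower, against 24.7% and 25.0% of all genes. In free 1 stood higher (IVL) and 4 lower (SFN, SPRR1A, CSTA and SLPI), against 37.4% and 31.5%. Some placements were narrow, with CSTA in free at 245 CPM in WT against 244 in CBFB_KO. SLPI in mono was at 464 CPM in WT against 466 in CBFB_KO, and IVL had 3 and 10 counts in WT mono. The free count rests on the TMM factors of 0.494 and 0.241 of the CBFB_KO free libraries, and in deposited TPM 0 members stood higher and 6 lower, CALML3 and SPRR1B having joined. By edgeR's adjusted p, 2 of 8 passed in free, both lower, where 24.2% of all genes were called higher and 18.1% lower. None of the 8 passed in mono, where 0.0307% of all genes were called higher and 0.117% lower, and none in poly, where the shares were 0.0246% and 0.166%. At an unadjusted p under 0.05 there were 712 genes in mono and 451 in poly, and DESeq2 called 122 and 107 of all genes, with CALML3 as the 1 of the 8 called in each. In the fits of 1 fraction alone, CALML3 was called higher in mono, where 0.0206% of 14581 genes were called higher and 0.0206% lower. CALML3 was called higher and SPRR1B lower in poly, where the shares were 0.424% and 0.758% of 14638 genes.

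The change of the ratio between fractions asks whether a member moved along the gradient between genotypes. For CALML3 the mono to free ratio was higher in CBFB_KO by 4.12 on the log2 scale (SE 1.29, edgeR adjusted p = 0.046), and by 3.21 (adjusted p = 0.02) without the second CBFB_KO free library. Its poly to free ratio was higher by 3.67 (SE 1.29) and missed the threshold at an adjusted p of 0.065. For SLPI the mono to free ratio was higher by 1.80 (SE 0.51, adjusted p = 0.034) and the poly to free ratio by 1.73 (SE 0.51, adjusted p = 0.038). Both SLPI calls were lost in a fit of the compared libraries alone (adjusted p = 0.11 and 0.06), and that of CALML3 was too (0.091). Leaving out any replicate also ended the SLPI calls (adjusted p from 0.067 to 0.24), and leaving out WT replicate 1 or 2 or CBFB_KO replicate 2 ended that of CALML3 (0.19, 0.12 and 0.13), which was 8.70 without CBFB_KO replicate 1. An alternative fit treated libraries of the same genotype and replicate number as 1 gradient, a pairing that the labels do not state. With the gradient as a block both SLPI calls were lost (adjusted p = 0.054 in mono to free and 0.059 in poly to free). These 2 members of 8 for mono to free and 1 of 8 for poly to free stand beside 4.87% and 4.1% of all genes called higher and 14.2% and 14.3% called lower. SFN had 2.33 in mono to free (SE 0.93, adjusted p = 0.092) and 2.29 in poly to free (SE 0.93, adjusted p = 0.1), which were 1.53 and 1.49 without the second CBFB_KO free library. SPRR1B had -2.61 (SE 0.90, adjusted p = 0.062) and -2.28 (SE 0.90, adjusted p = 0.092), which were -1.03 and -0.71 without that library and -0.67 and -0.23 without TMM factors. All these ratios rest on the CBFB_KO free libraries with the high mitochondrial share, whose part in them was not tested. The poly to mono ratio is formed without those free libraries, but the spread in its main test was estimated with them included. By edgeR the ratio differed between genotypes for no member and for 0.0% of all genes, with 164 genes at an unadjusted p under 0.05. DESeq2 called 0 genes. In a fit of the compared libraries alone, which leaves the free libraries out, 0 members passed for poly to mono.

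Within a genotype the members spread along the gradient mainly in one order, shared by WT and CBFB_KO. In WT, CSTA, SPRR1B and SPRR1A were lower in poly than in mono, by log2 differences of -2.38 (edgeR adjusted p = 0.008), -2.31 (0.03) and -2.01 (0.015), whereas 9.68% of all genes were lower and 11.0% higher. In CBFB_KO, CSTA (-2.23, adjusted p = 0.013) and SLPI (-1.17, adjusted p = 0.048) were lower in poly, where 8.66% of all genes were lower and 8.2% higher. CALML5 did not pass in WT (-1.28, adjusted p = 0.21) or in CBFB_KO (-1.12, adjusted p = 0.28). At the other end, IVL stood higher in poly than in mono by 3.57 in WT (adjusted p = 0.056) and by 2.12 in CBFB_KO (adjusted p = 0.2). The coding sequences of SPRR1A and SPRR1B have 89 codons each and that of CSTA has 98. SLPI has 132 codons, CALML5 146, CALML3 149, LCN2 200, SFN 248 and IVL 585. Across the 9 members the poly to mono difference went with the number of codons, with a Spearman rho of 0.93 in WT and 0.8 in CBFB_KO. This is a description over genes that share the same libraries, and whether other genes show the same was not tested. IVL had 3 and 10 counts in WT mono. LCN2, with 4 to 45 counts in each mono or poly library, was at -0.91 in WT and 0.84 in CBFB_KO.

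**Figure D3:**
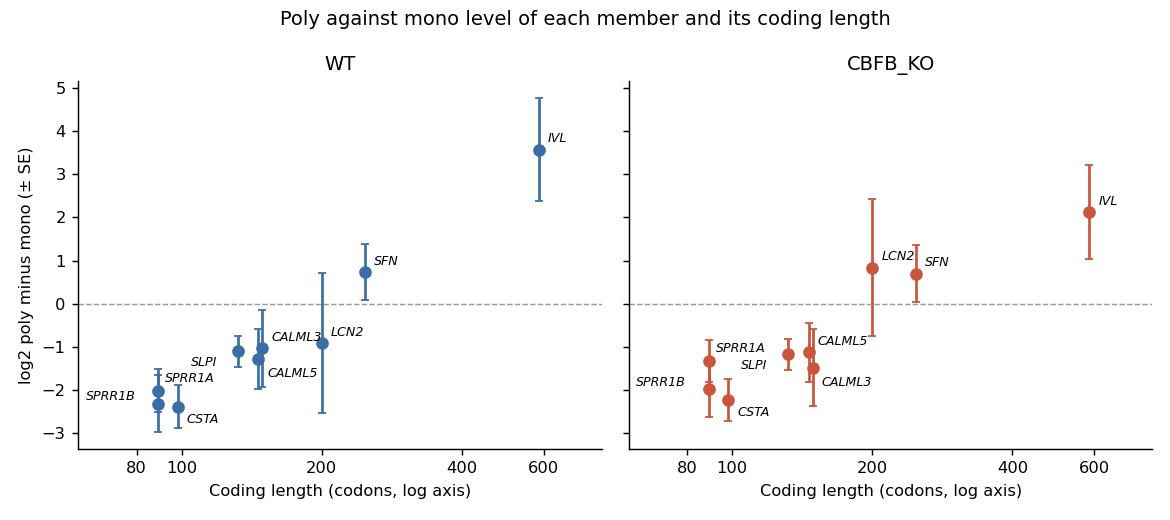
Log2 difference between poly and mono level of each member with its SE, against coding length in codons on a log axis, for WT and CBFB_KO. The 89-codon SPRR1 genes and CSTA lie below 0 and the 585-codon IVL lies above 0 in both genotypes.

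On the per-length TPM scale, the order of levels in WT poly ran from SFN (1152 and 1041 TPM) through SLPI (792 and 698), CSTA (462 and 433) and SPRR1B (112 and 119) to SPRR1A (7.68 and 6.89). These 5 did not overlap with their neighbours. CALML5 (3.25 and 3.13 TPM) and CALML3 (3.40 and 2.15) overlapped, IVL (0.67 and 1.82) lay below them, and LCN2 (0.23 and 0.45) came last. In CBFB_KO poly SFN was at 1650 and 1620 TPM, SLPI at 830 and 817, CSTA at 717 and 727 and SPRR1B at 46.9 and 44.6. CALML3 (32.7 and 32.3 TPM) and CALML5 (31.1 and 31.9) then stood above SPRR1A (3.33 and 3.42), whereas in WT they stood below it. IVL was at 2.03 and 2.49 TPM and LCN2 at 0.85 and 1.16. The calmodulin-like genes thus changed place with SPRR1A but remained far below the abundant secretory and adaptor genes.

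Over the 12 libraries, the gene whose log2 CPM was most like that of CALML5 among 9749 genes was CALML3 (Pearson r = 0.98). KLK5 (0.97) and KLK11 (0.95), serine proteases of the skin barrier, followed, and then SLC2A5 (0.95), a fructose transporter, and INSC (0.94), an adaptor in spindle orientation. KLK5 was at 27.0 and 20.6 CPM in WT mono against 114 and 119 in CBFB_KO mono, and at 25.8 and 17.6 in WT poly against 82.6 and 78.9 in CBFB_KO poly. KLK11 was at 0.978 and 0.948 CPM against 6.52 and 6.29 in mono. The other members ranked lower, SFN at place 247 (r = 0.78), SLPI at 977 (0.70), CSTA at 2471 (0.56), SPRR1A at 6460 (-0.04) and SPRR1B at 8362 (-0.46). IVL and LCN2 were below the mean of 1 TPM needed for ranking. Over the 8 mono and poly libraries the order changed, with CALML3 at place 2 (r = 0.99), KLK11 at 10 (0.98) and KLK5 at 12 (0.97). INSC stood at 24 (0.94), SLC2A5 at 42 (0.91), CSTA at 761 (0.60), SLPI at 1008 (0.56) and SFN at 2178 (0.43). These correlations share libraries, among them the CBFB_KO free pair, and are a description. KLK5 and KLK11 were picked for their likeness to CALML5, so their higher levels in CBFB_KO mono and poly follow from that choice.

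Around CALML5, 17 other genes tested had their start within 500 kb, and CALML3 was not counted among them. Their mono differences ran from -3.20 (AKR1C2) to 3.94 (CALML3-AS1, SE 1.82, from a mean of 0.0625 TPM) and their poly differences from -3.0 to 4.32. AKR1C2, an aldo-keto reductase at -481.5 kb, fell in mono (-3.20, SE 0.53, edgeR adjusted p = 0.047) and had an adjusted p of 0.054 in poly. The nearest gene above 1 TPM on the CALML3 side, AL365356.5 at 96.6 kb, had 1.48 in mono (SE 0.34, adjusted p = 0.27) and 1.51 in poly (SE 0.34, adjusted p = 0.27). NET1, a guanine exchange factor at -87.0 kb, had 0.55 and 0.61, each with an adjusted p of 1.0. AKR1C2, AL365356.5 and NET1 were chosen for mention after their values were seen.

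**Figure D4:**
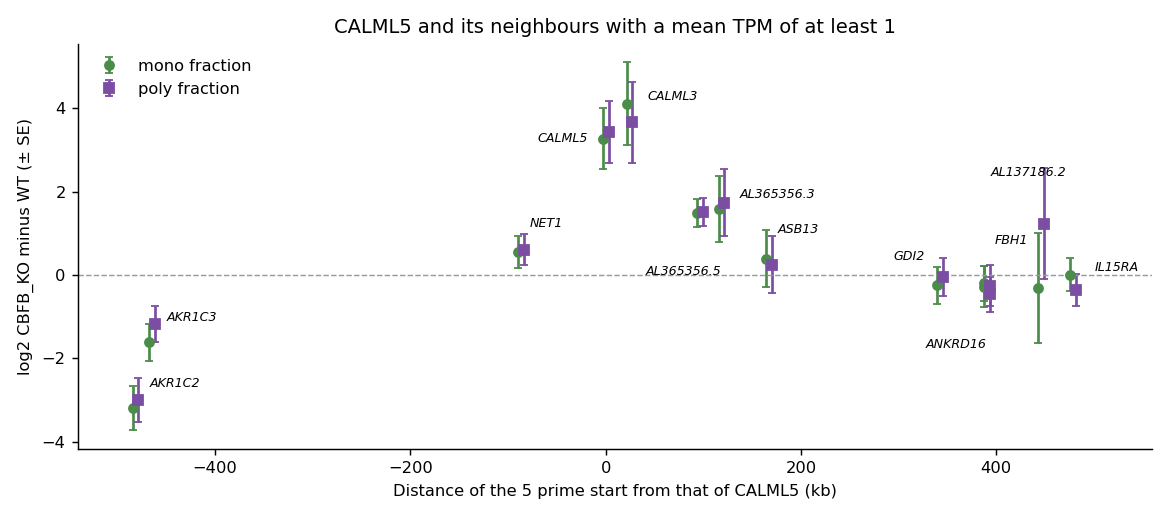
Log2 difference between CBFB_KO and WT with its SE in the mono and poly fractions for CALML5, CALML3 and the neighbours with a mean of at least 1 TPM, by distance of the 5′ start from that of CALML5 in kb. CALML5 and CALML3 stand highest, at 3.27 and 4.11 in mono, and AKR1C2 lowest, at -3.20.

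The wider families and pathway lists showed few calls in the ribosome-bound fractions. Among the ubiquitous calmodulins, CALM3 had log2 differences of 0.16 in mono and -0.06 in poly (SE 0.56 each) and CALM2 of -0.35 and 0.34 (SE 0.51 each), each with an edgeR adjusted p of 1.0. The 14-3-3 family had 7 genes tested, and none passed in mono or poly, with medians of 0.22 and 0.31 against 0.03 and -0.03 over all genes. In free 4 of the 7 were higher, against 24.2% of all genes, led by YWHAE, which was at 125 and 81.3 CPM in WT and at 3825 and 5095 in CBFB_KO (log2 difference 5.43, SE 0.44, adjusted p = 6.2e-05). Also higher there were YWHAZ (2.28, adjusted p = 0.0019), YWHAG (2.56, 0.0025) and YWHAB (1.62, 0.0088). In deposited TPM the free mean of YWHAE was also higher in CBFB_KO (686 against 68.8), but those of YWHAZ (44.6 against 44.8) and YWHAG (4.28 against 3.95) were near those of WT and that of YWHAB was lower (3.68 against 6.86).

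Of 40 cornified envelope precursors of the epidermal differentiation complex, SPRR1A, SPRR1B and IVL included, 12 were tested, and none passed in mono or poly. The medians were 0.27 and 0.26. In free 2 of the 12 were lower, near the 18.1% of all genes, SPRR1A and SPRR2D (-2.03, SE 0.51, adjusted p = 0.011). Of the crosslinking and scaffold genes 9 of 16 were tested and none passed in mono or poly, with medians of 0.20 and 0.27. TGM1, the transglutaminase of the keratinocyte membrane, had 0.98 (SE 0.58) in mono and 1.22 (SE 0.58) in poly, each with an adjusted p of 1.0. In free 1 of the 9 was higher and 2 were lower, against 24.2% and 18.1% of all genes. EVPL, which encodes the scaffold protein envoplakin, was higher (1.64, adjusted p = 0.0076), although its mean in deposited TPM was lower (0.495 against 0.68). DMKN, a secreted protein of the epidermis (-1.99, adjusted p = 0.0048), and KRT10, the keratin of suprabasal cells (-1.45, adjusted p = 0.031), were lower in free.

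Among 12 tested protease inhibitors, CST6 alone passed in mono and in poly, higher in CBFB_KO in both. Of all genes, 0.0307% were called higher in mono and 0.0246% in poly. CST6 encodes cystatin M/E, a skin inhibitor of cysteine proteases related to CSTA. It was at 8.79 and 9.69 CPM in WT mono and at 48.3 and 63.6 in CBFB_KO mono (log2 difference 2.60, SE 0.43, edgeR adjusted p = 0.047). In poly it was at 5.88 and 5.45 CPM in WT and at 31.5 and 33.5 in CBFB_KO (2.52, SE 0.43, adjusted p = 0.045). In the free fraction it had -0.47 (SE 0.42, adjusted p = 0.39). The adjusted p of CST6 in mono and poly lay close to the threshold of 0.05, and the fit includes the nearly identical CBFB_KO poly pair. In free 3 of the 12 were higher and 2 lower, near the 24.2% and 18.1% of all genes. SERPINB5 (3.40, adjusted p = 0.00066) was among the higher, and the lower were SLPI and CSTB (-1.41, adjusted p = 0.015), the second intracellular cystatin.

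Of 16 epidermal proteases tested, none passed in mono or poly, with medians of 0.43 and 0.13. KLK5, picked above for its likeness to CALML5, had 2.29 (SE 0.87, adjusted p = 0.94) in mono and 1.90 (SE 0.86, adjusted p = 1.0) in poly. In free 2 of the 16 were lower and 0 higher, against 18.1% and 24.2% of all genes. The lower were KLK7 (-2.14, adjusted p = 0.002) and KLK8 (-1.62, adjusted p = 0.017), further kallikreins of the skin. Among 14 secreted defence proteins tested, 1 was called in mono and 2 in poly, all lower in CBFB_KO, opposite to CALML5. Of all genes, 0.117% and 0.166% were called lower there. The medians of the list were 0.13 and -0.02, against 0.03 and -0.03 over all genes. In free 3 of the 14 were higher and 5 lower, against 24.2% and 18.1% of all genes. SAA1, an acute-phase protein, was at 34.7 and 40.8 CPM in WT mono against 3.34 and 2.98 in CBFB_KO mono and at 72.7 and 65.9 in WT poly against 4.96 and 4.76 in CBFB_KO poly (log2 difference -3.58, SE 0.36, adjusted p = 0.0026 and -3.83, SE 0.36, adjusted p = 0.0013). C3, the central complement component, fell in poly (-3.22, SE 0.42, adjusted p = 0.0088), with -2.06 in mono (adjusted p = 0.11). None of the 14 was called higher in mono or poly.

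Of 19 transcription regulators of epidermal differentiation and 10 barrier lipid enzymes tested, none passed in mono or poly. The regulators had medians of 0.07 and -0.10 and the lipid enzymes -0.05 and -0.07, close to those of all genes. In free 5 regulators were higher and 5 lower, against 24.2% and 18.1% of all genes. The higher were led by TP63 (5.41, adjusted p = 0.00011), TFAP2A (4.56, 0.00021) and VDR (3.67, 0.00021), and the lower by ELF3 (-2.70, adjusted p = 0.0018) and CEBPB (-3.19, 0.002). Of the 10 lipid enzymes 3 were higher in free and 2 lower, near the 24.2% and 18.1% of all genes. Among the higher ABCA12 (3.33, adjusted p = 0.018) had the smallest adjusted p, and the lower were ELOVL1 (-1.64, 0.029) and SULT2B1 (-1.53, 0.038). In deposited TPM the free mean of ABCA12 was lower in CBFB_KO (0.095 against 0.315).

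**Figure D5:**
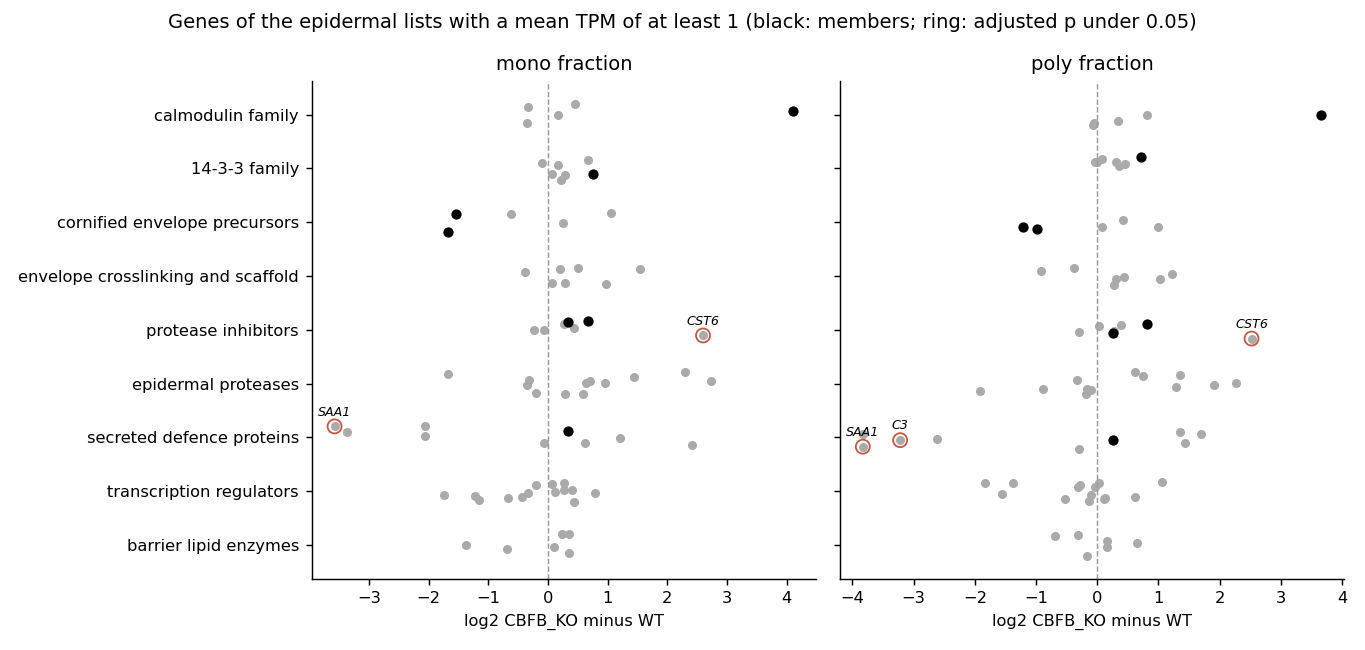
Log2 difference between CBFB_KO and WT in the mono and poly fractions for listed genes with a mean of at least 1 TPM, each point a gene, CALML5 left out and IVL and LCN2 below that level. Black points are members and rings mark an adjusted p under 0.05, which CST6 reached above 0 in both fractions and SAA1 below 0 in both.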

How the data were processed

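Polysome profiling followed by RNAseq was performed by the authors on WT and CBFB_KO MCF10A cells. Per the labels, libraries were made with a TruSeq mRNA kit, and the submitters' processing notes name Trimmomatic, STAR, RSEM and hg19 without versions. The authors deposited 1 RSEM table per library. Expected counts are estimated reads per gene without normalization, deposited TPM is scaled per effective length to the same sum in each library, and deposited FPKM is scaled per effective length and library total. The effective length per gene, in bases, was deposited by the authors too.

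Rounded expected counts entered the quasi-likelihood test of edgeR 4.0.16 under R 4.3.3 with TMM factors, filterByExpr on the 6 groups and 1 mean per group over all 12 libraries (16275 genes). Calls are Benjamini-Hochberg adjusted p under 0.05 over all genes tested, and SE is the size of the log2 difference over the square root of F. DESeq2 1.42.0 and other settings were tried as alternatives. Remaining steps ran in Python 3.11.15 with pandas 2.3.3, and figures in matplotlib 3.10.9. Depth was 41050325 to 63886726 counts per library. Groups came from the sample titles.

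Symbols came from a table of gene identifiers (49995 genes) and transcript identifiers (1099 more). Positions, distances and coding lengths are of GRCh38 (GENCODE release 29), while the counts were made on hg19. Members and lists were chosen with earlier results of these data known. The genes named from each list are the 3 with the highest mean TPM and, in each fraction, up to 3 with the smallest adjusted p among the calls. The 5 genes most like CALML5 by Pearson r among genes with a mean of at least 1 TPM are named too, and others are said to be chosen after their values were seen. Some genes that this rule names are not reported here.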

Additional observations from a re-analysis of the deposited data

Results flagged for a closer look

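Changes of a ratio between fractions that differed between genotypes by an interaction test were found for 2 members. CALML3 had a mono to free ratio higher in CBFB_KO by 4.12 on the log2 scale, from groups of 2 libraries. SLPI had a mono to free ratio higher by 1.80 and a poly to free ratio higher by 1.73. The free libraries of CBFB_KO enter all 3 values, and the mitochondrial share of those libraries (71.6% and 87.2%) moved with them. Its part in these values was not tested.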

How the results depend on the processing

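The counts of members called depended on the setting. In the free fraction 2 members passed, and 4 did with DESeq2, without TMM factors or without the filter on low counts, 0 in a fit of the libraries compared alone, and 0 to 3 when a replicate was left out (0 without CBFB_KO replicate 2). In mono 0 passed, and 1 (CALML3, higher) did with DESeq2, without the filter, in the 4 mono libraries alone, without the second CBFB_KO free library and without the free libraries. The latter 2 settings were chosen after seeing the data. In poly 0 passed, and 1 (CALML3) did with DESeq2, without the filter, without the second CBFB_KO free library and without the free libraries, and 2 (CALML3 and SPRR1B) in the 4 poly libraries alone. For poly to free 1 passed, and 4 did with DESeq2, 5 without TMM factors, 3 without the filter, 0 in the libraries compared alone, 0 with the gene length offset, 0 with the gradient as a block, 0 with the CBFB_KO poly pair as 1 sample, 3 without the second CBFB_KO free library and 0 to 3 when a replicate was left out (0 without WT replicate 1 or CBFB_KO replicate 2). For mono to free 2 passed, and 4 did with DESeq2, 5 without TMM factors, 0 in the libraries compared alone, 1 with the gradient as a block, 0 with the CBFB_KO poly pair as 1 sample and 0 to 3 when a replicate was left out (0 without WT replicate 1, WT replicate 2 or CBFB_KO replicate 2). The cause of these changes was not tested.

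With the replicate block, poly to free gave 2 members (CALML3 and SLPI) in place of 1. Replicate differences correlated between genotypes at -0.16 to 0.28 in 9 pairs of groups and between fractions of a genotype at -0.04 to 0.22 in 6. The main fit did not pair the libraries by replicate number, and the replicate and gradient blocks were alternatives only. Signs of fitted differences of single members turned in 17 cases. CALML5 in free gave 0.29 and SPRR1B in free gave -0.51 without the second CBFB_KO free library, with ranges of -4.45 to 0.29 and -0.51 to 1.79 when a replicate was left out. SPRR1B in free gave -0.98 without TMM factors. CALML3 in free gave 0.28 with the gene length offset and 0.90 without that library, with a range of -4.45 to 0.90. LCN2 without a replicate ranged from -1.71 to 6.45 in free, -0.13 to 1.49 in mono, -4.90 to 5.27 in poly to free and -6.59 to 3.20 in mono to free. For mono to free, SPRR1A ranged from -0.13 to 1.20 and IVL from -4.49 to 0.50, and IVL gave 1.38 without TMM factors. Ratios of means in deposited TPM or FPKM moved past the spread between replicates in 15 cases, and those of the free fraction lay lower than with TMM factors (CSTA -3.25 with TPM against -0.65, and SPRR1B -1.71 against 1.06, with the sign turned). Depth limits LCN2 and IVL, and the CBFB_KO free libraries limit each ratio to free.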

Other observations

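Beyond the epidermal lists, VIM, the intermediate filament of mesenchymal cells that MCF10A cells also express, was lower in CBFB_KO in both ribosome-bound fractions. It was at 2.30 and 1.59 CPM in WT mono against 0.204 and 0.138 in CBFB_KO mono (log2 difference -3.47, SE 0.49, edgeR adjusted p = 0.018) and at 7.51 and 10.7 in WT poly against 0.402 and 0.449 in CBFB_KO poly (-4.42, SE 0.47, adjusted p = 0.0024). KRT14, the keratin of basal cells, stood higher in CBFB_KO in mono and poly but was not called. It was at 3.12 and 2.20 CPM in WT mono against 30.4 and 30.1 in CBFB_KO mono and at 18.7 and 19.8 in WT poly against 138 and 138 in CBFB_KO poly. Its log2 differences of 3.50 (SE 0.94) and 2.84 (SE 0.91) had adjusted p of 0.45 and 0.93 in the fit of 12 libraries, and KRT14 was chosen for mention after its values were seen. In CBFB_KO free KRT14 was at 24.8 and 1.42 CPM, a gap between replicates of the kind seen for CALML5 and CALML3. VIM and KRT14 are among the 10 mammary epithelial markers, of which VIM alone was called lower in mono and in poly and none higher. Of all genes, 0.117% and 0.166% were called lower there. The medians of the list were -0.07 and -0.50, against 0.03 and -0.03 over all genes. In poly the mean CPM of KRT5, KRT18, ITGA6, EGFR, CDH1 and CD44 was also lower in CBFB_KO, and that of KRT17 and TP63 higher.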
